A study of Mus musculus with 45 samples.

Results

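Acot1, Acot2, Acot5 and Acot11 are 4 genes of the acyl-CoA thioesterase family, and their RNA was followed in mouse inguinal fat over 3 early diets and 5 ages. They were chosen by symbol from the annotation of the arrays, with earlier results of the same arrays known, so that the LUN values of day 21 had a part in the choice. They are 4 of 13840 named genes and had 5 of the 33012 probes. Each gene is given by its brightest probe over the 45 arrays, which is probe 493258 for Acot1, 663149 for Acot2, 338492 for Acot5 and 738902 for Acot11. Acot2 had a further, dimmer probe, 480488.

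Acyl-CoA thioesterases split the activated form of a fatty acid, its coenzyme A ester, into free fatty acid and coenzyme A. They work against the acyl-CoA synthetases, which activate the acid, and so bear on how much acyl-CoA is open to storage or oxidation in each compartment of the cell. Acot1 acts in the cytosol, Acot2 in mitochondria and Acot5 in peroxisomes, and the genes of these close relatives lie next to each other on mouse chromosome 12. Acot11, on chromosome 4, is also known as brown fat inducible thioesterase, after its rise in brown fat of cold-exposed mice. In mouse liver and heart, Acot1 and Acot2 are known to be induced by fasting and by ligands of the nuclear receptor PPAR-alpha.

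The animals were male C57BL/6J mice, and no transgene was used. Tissue was taken at day 5, day 10, day 21, day 56 or day 112. Control pups were suckled in litters of 8 by dams on a breeder diet with 22 kcal % fat eaten freely. Pups under-nourished during lactation (LUN) were in litters of 8 whose dams were given 50% of the food, and pups over-nourished during lactation (LON) were in litters of 4 whose dams ate a diet with 58 kcal % fat. From weaning to day 56 all mice ate the same chow with 11 kcal % fat, and a high fat diet was then given to all of them over 8 weeks, up to day 112.

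RNA of 12 mice was pooled in each of the 15 groups and the pool was put on 3 arrays. The 3 arrays of a group are therefore technical replicates, and the p-values below measure the spread between arrays and not the spread between mice. Array medians ranged from 545 to 1459 raw signal units, and within groups arrays correlated with each other at 0.806 to 0.963 on average. The lowest correlation was that of control day 112 replicate 2. Of the 5 white fat markers measured, all were above background on at least 1 array in each group, other than LUN at days 10 and 21, where 1 was not. In bulk tissue, fewer cells of a type and less RNA per cell cannot be told apart.

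Signals are given as log2 of the normalized signal, on which the median probe stood at 9.80 on each array. Near background is used here for an array on which a probe was not above the floor, the level under which 95% of 877 probes for odorant, vomeronasal and taste receptors lay on that array. The floor lay between 11.02 and 13.28 and had a middle value of 11.73. Against a group with no array above the floor a fold is given as a lower bound, computed with the floor of those arrays in place of the dim signal. Acot1 was above the floor on 16 of 45 arrays and Acot5 on 8. Acot2 was above it on 1 array, control day 5 replicate 3, and its further probe on 0. Acot11 was above it on 0 arrays. Thus Acot11 lay near background in all 15 groups and Acot2 in all but that 1 array, while Acot1 and Acot5 left the background in some groups only.

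The 5' neighbourhoods of Acot1 and Acot2 are shown because these adjacent genes of closely related enzymes had unlike signals in LUN until day 21. They are 250 bases upstream of the annotated start, taken from RefSeq on build GRCm38.p6, plus strand, at chr12:84009252-84009501 for Acot1 and chr12:83987611-83987860 for Acot2. Capitals mark the motif CCAAT on either strand.

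Acot1: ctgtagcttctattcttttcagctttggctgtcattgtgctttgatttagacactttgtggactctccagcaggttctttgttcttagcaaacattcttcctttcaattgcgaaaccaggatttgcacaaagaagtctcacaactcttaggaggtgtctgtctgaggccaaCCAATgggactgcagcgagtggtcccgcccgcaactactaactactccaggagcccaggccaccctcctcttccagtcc

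Acot2: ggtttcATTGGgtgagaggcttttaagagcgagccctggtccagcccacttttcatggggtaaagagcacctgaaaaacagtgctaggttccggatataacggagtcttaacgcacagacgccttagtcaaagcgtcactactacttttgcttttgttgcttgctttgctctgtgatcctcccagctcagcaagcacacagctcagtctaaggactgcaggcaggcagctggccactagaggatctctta

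CCAAT was found once in each, at 79 bases before the start in Acot1 and, on the other strand, at 244 bases in Acot2. It was present in 33.8% of 32851 promoter windows of this length. The motif AGGTCA, a core sequence read by nuclear receptors, was in neither window, and 14.0% of windows held it. Its spaced repeat AGGNCANAGGNCA, which overlaps that core and is the type read by PPAR-alpha, was in neither, and 0.338% of windows held it. In the windows of Acot5, not shown, AGGTCA was present once, and in those of Acot11 it was absent. These matches describe letters only and say nothing of binding.

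Acot1 had 2 features over the 15 groups, a fall from day 5 to day 56 in each diet and a level in LUN mice that stayed high until day 21. In the control the arrays at day 5 read 11.74, 13.07 and 11.84. At day 10 they read 11.30, 10.94 and 10.81, and at day 21 they read 10.78, 9.98 and 8.82. In control 2 of 3 arrays at day 5 and 1 of 3 at day 10 were above the floor, and all arrays from day 21 on were near background. At days 56 and 112 the control values lay between 8.25 and 10.23. In LUN the 3 arrays read 14.26, 13.60 and 13.02 at day 5, 13.84, 13.55 and 13.30 at day 10, and 14.01, 13.94 and 14.12 at day 21. All 9 of these arrays were bright, and 8 were above the floor. The exception was replicate 3 of day 5, an array with a high floor of 13.05. At day 56, LUN read 9.68, 9.53 and 8.22, and at day 112 it read 8.34, 8.88 and 8.53, all near background. LON had means between those of control and LUN at days 5, 10 and 21. At each of these ages LON overlapped with control between arrays, and at day 21 LON was near background. Its arrays read 12.63, 12.63 and 13.06 at day 5, 11.56, 11.17 and 12.29 at day 10, and 10.99, 10.52 and 10.14 at day 21. They were between 8.06 and 9.51 at days 56 and 112.

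**Figure D1:**
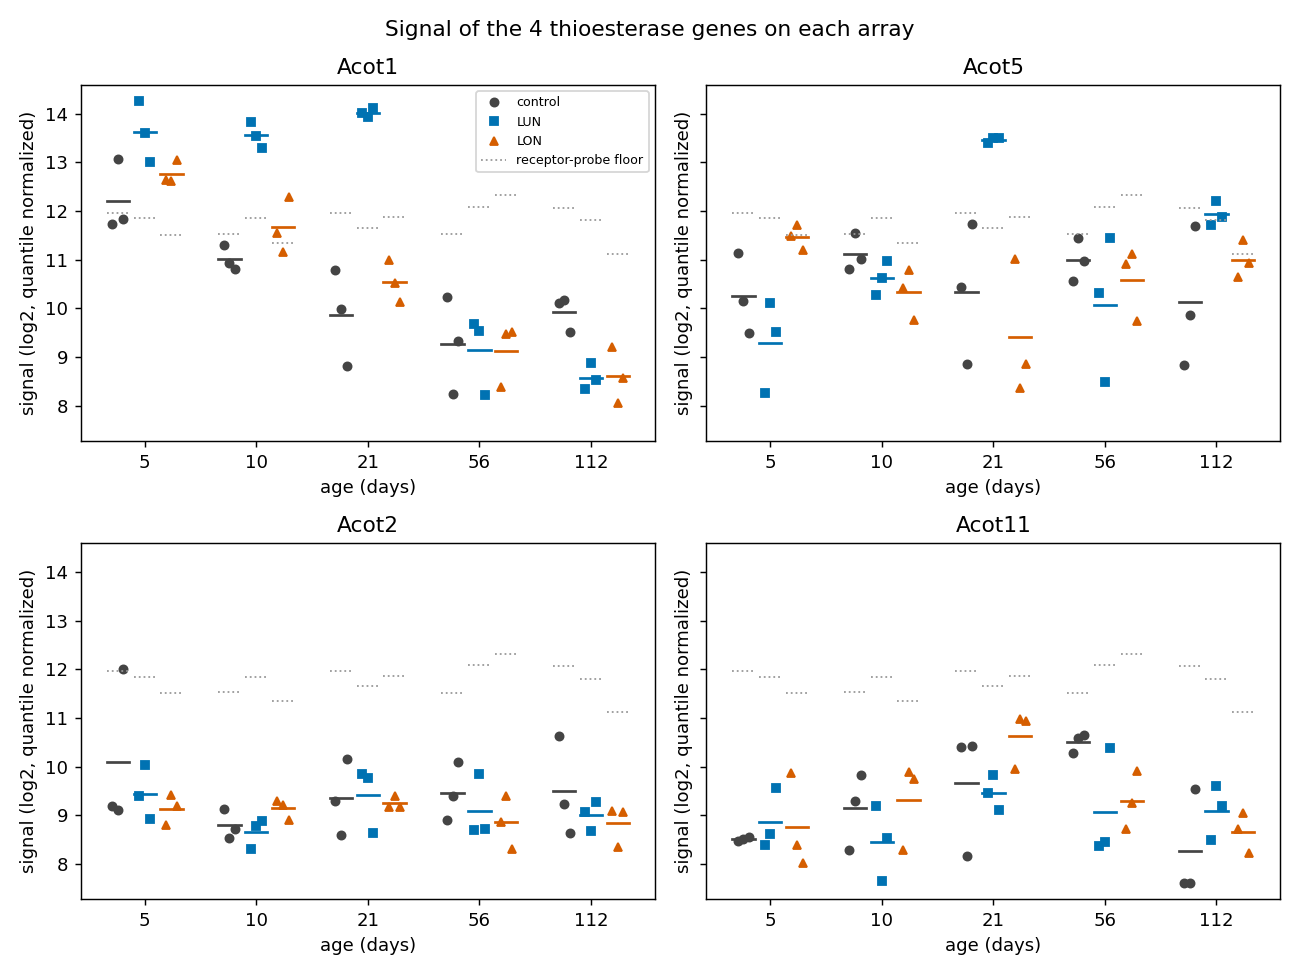
Normalized log2 signal of Acot1, Acot5, Acot2 and Acot11 against age in days, with 1 point for each of the 3 arrays of a group, a solid bar for the group mean and a dotted bar for the mean floor of the receptor probes. Acot1 in LUN stays between 13.02 and 14.26 until day 21, Acot5 stands between 13.39 and 13.51 in LUN at day 21, and Acot2 and Acot11 lie under the dotted bars in nearly all arrays.

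In the order of its 15 group means, Acot1 was highest in LUN at day 21 (14.02 ± 0.09, SD, n = 3 arrays), followed by LUN at day 5 (13.62 ± 0.62) and LUN at day 10 (13.56 ± 0.27). Next came LON at day 5 (12.77 ± 0.25) and control at day 5 (12.22 ± 0.74), and then LON at day 10 (11.67 ± 0.57) and control at day 10 (11.02 ± 0.25). The lowest means were those of LON and LUN at day 112, 8.61 ± 0.57 and 8.58 ± 0.28. Of the 14 pairs of neighbours in this order, 13 overlapped between arrays, so that their order is not larger than the array spread. The 1 gap lay between LUN at day 10 and LON at day 5. The lowest LUN array of day 5, at 13.02, lay under the highest arrays of control and LON at that age, 13.07 and 13.06, so that LUN at day 5 overlapped with both.

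The LUN diet was compared with the control at each age. The question was whether the members differed while the pups were underfed, and whether a difference was left after chow and after the high fat diet. At day 10 Acot1 was 5.85-fold higher in LUN, a log2 difference of 2.55 (SE 0.48, limma adjusted p = 0.0020), and the 3 LUN arrays lay above all 3 control arrays. Of the control arrays 2 were near background, and with these set at their floor the fold was 3.93. Acot1 was the 1 member called there, where 1.39% of all probes were called. At day 5 the log2 difference was 1.41 (SE 0.48, limma adjusted p = 0.146), the arrays of the groups overlapped, and 0 of 4 members were called against 1.41% of probes. At day 21 Acot1 stood at a log2 difference of 4.16, with the control near background, which sets the fold at 4.16 or more by the floor. Since this contrast had a part in the choice of the genes, no test and no count of members is given for it. Over all probes 2.71% were called.

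After chow no difference was called. At day 56 Acot1 in LUN and in control differed by -0.13 (95% interval -1.09 to 0.84) with both groups near background, and 0 of 4 members were called against 0.203% of probes. At day 112, after the high fat diet, the log2 difference was -1.35 (SE 0.48, limma adjusted p = 0.173). Its arrays did not overlap, but all 6 were near background and no fold is given. Again 0 of 4 members were called, against 0.551% of probes. Over days 5, 10, 56 and 112, limma called 1 of 16 tests of the members in LUN against control. At an unadjusted p under 0.05 there were 5, beside 7.94% to 14.4% of all probes at these ages.

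Whether the LUN difference of Acot1 at days 5 and 10 was itself larger than that of day 56 was asked after the values had been seen. The difference of differences was 2.68 for day 10 (SE 0.67, limma adjusted p = 0.082) and 1.54 for day 5 (SE 0.67, limma adjusted p = 0.347). Neither passed the threshold of 0.05. Over the 4 members 0 of 8 such tests were called by limma, and 0.297% (day 10) and 0.845% (day 5) of probes were called. An unadjusted p under 0.05 was found for 2 of the 8, and for 7.54% (day 10) and 11.9% (day 5) of probes. Leaving out 1 array in turn, the day 10 value ranged from 2.19 without control day 56 replicate 1 (adjusted p = 0.265) to 3.18 without control day 56 replicate 2 (adjusted p = 0.034).

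The fall with age was tested from day 5 to day 56 within each diet, also after the values had been seen. Acot1 was higher at day 5 in all 3 diets. The log2 difference was 2.95 in control (SE 0.48, limma adjusted p = 3.5e-05), 4.48 in LUN (adjusted p = 1.35e-08) and 3.65 in LON (adjusted p = 7.08e-07). The groups did not overlap in any diet. As the groups of day 56 were near background, the folds are bounds of at least 1.62 in control, 2.91 in LUN and 1.36 in LON. Leaving out 1 array in turn, these bounds fell as low as 1.21 in control, 2.34 in LUN and 1.04 in LON. Control day 5 replicate 1 and LUN day 5 replicate 3 were themselves near background and entered with their own signal. The 3 differences of Acot1 and that of Acot11 in control made 4 of 12 tests called. A large share of all probes changed between these ages, with 7.49% called in control, 10.2% in LUN and 11.1% in LON.

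**Figure D2:**
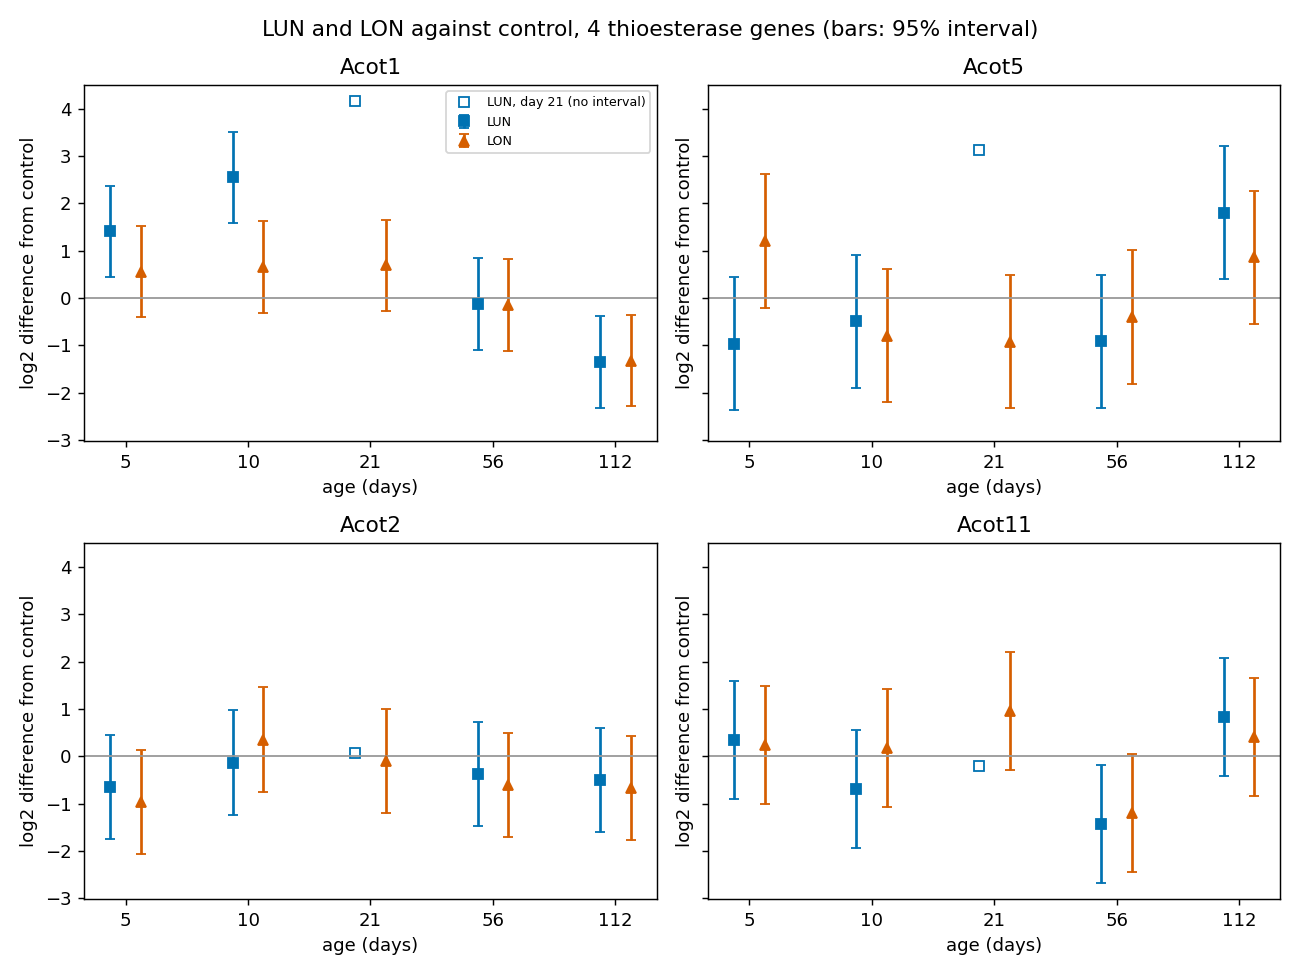
Log2 difference of LUN (squares) and LON (triangles) from control against age in days for the 4 genes, each from 3 against 3 arrays, with the 95% interval of the limma fit. The open square is LUN at day 21, drawn without an interval because that contrast had a part in choosing the genes, and the interval of Acot1 in LUN at day 10 (1.58 to 3.51) lies clear of 0.

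Acot5 had another pattern, with a single high group. Its arrays read 13.39, 13.51 and 13.51 in LUN at day 21. Control arrays at that age read 10.44, 8.86 and 11.73, and those of LON 11.02, 8.37 and 8.87. The LUN arrays at day 21 were the highest 3 of all 45 and the 1 group with each array above the floor. The log2 difference from control was 3.13, and by the floor the fold was at least 2.84, given as a description. At the earlier ages Acot5 in LUN read 8.27, 10.11 and 9.52 at day 5 and 10.28, 10.63 and 10.97 at day 10, all near background, with log2 differences from control of -0.96 (limma adjusted p = 0.593) and -0.50 (adjusted p = 0.931).

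The next highest group of Acot5 was LUN at day 112, with arrays at 11.72, 12.21 and 11.89, 2 of them above the floor. Control arrays at day 112 read 8.85, 9.87 and 11.69, of which only the highest was above its floor. The groups did not overlap, but the log2 difference of 1.80 (SE 0.69) did not pass the threshold (limma adjusted p = 0.216). It was decided by single control arrays, as it was 2.58 without control day 112 replicate 3 (adjusted p = 0.029) and 1.16 without control day 112 replicate 1 (adjusted p = 0.546). Over the 15 group means 13 of 14 neighbours of Acot5 overlapped, the gap lying under LUN at day 21. The correlation of Acot5 with Acot1 over the 15 group means was 0.14, and these means share the arrays and their normalization.

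Acot2 showed no call in any comparison. Its group means lay between 8.66 (LUN at day 10) and 10.10 (control at day 5), and the latter rested on 1 array at 12.01 beside others at 9.19 and 9.11. In LUN it read 9.40, 10.03 and 8.92 at day 5, 8.32, 8.78 and 8.88 at day 10, and 9.86, 9.76 and 8.65 at day 21. The further probe of Acot2 ranged from 7.52 to 11.27 over the 45 arrays. In the LUN groups where Acot1 was bright, both Acot2 probes were near background on each array. Acot3, the peroxisomal neighbour on the same chromosome, was near background on all 45 arrays, with a highest value of 10.50. The genes of this cluster are close copies, and since the probe sequences were not used here, signal from 1 copy on the probe of another was not tested.

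Acot11 ranged from 7.61 to 10.99 over the 45 arrays, with its highest group mean in LON at day 21 (10.63 ± 0.59) and its lowest in control at day 112 (8.26 ± 1.12). Control arrays read 8.48, 8.52 and 8.57 at day 5, 10.28, 10.59 and 10.64 at day 56, and 7.61, 7.62 and 9.55 at day 112. Day 56 of the control thus lay above both, and its arrays did not overlap with either group. The fit called Acot11 lower at day 112 than at day 56 (log2 difference -2.25, SE 0.61, limma adjusted p = 0.034) and lower at day 5 than at day 56 (-1.98, adjusted p = 0.041). As each of these groups was near background, no fold is given. The first call was lost without any 1 of 5 of the 6 arrays compared, with adjusted p up to 0.199, and the second without any 1 of the 6, with adjusted p up to 0.119.

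The LON diet was compared with the control at each age, and limma called 0 of 20 tests of the members. At an unadjusted p under 0.05, 1 of the 20 passed, beside 6.01% to 16.1% of all probes. This was Acot1 at day 112 (log2 difference -1.32, limma adjusted p = 0.134), where both groups were near background. The share of all probes called was 1.77% on day 5 and 0.739% on day 10. It was 1.40% on day 21, 1.54% on day 56 and 2.38% on day 112. Acot1 in LON exceeded control by 0.55 at day 5 (95% interval -0.41 to 1.52), by 0.66 at day 10 (-0.31 to 1.62) and by 0.69 at day 21 (-0.28 to 1.66). The arrays of LON and control overlapped at each of the 3 ages. Acot5 in LON at day 5 read 11.49, 11.72 and 11.19 against 11.15, 10.15 and 9.50 in control, a log2 difference of 1.20 (limma adjusted p = 0.566). The column names of the LON arrays have another form than those of control and LUN, and the labels do not say why. LON arrays correlated with their deposited values at 0.99995, beside 0.99951 to 0.99985 for the other arrays. Any difference of LON from control therefore cannot be told apart from a difference in the handling of the arrays.

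Weaning age was also compared with the ages around it, as day 21 against the mean of days 10 and 56 in control and LON. Limma called 0 of 8 tests, and 1 had an unadjusted p under 0.05 (Acot11 in LON, 1.32, adjusted p = 0.397), beside 15.5% of probes in control and 8.03% in LON. Of all probes, 3.75% were called in control and 1.10% in LON. Acot1 differed by -0.28 in control (95% interval -1.12 to 0.56) and by 0.15 in LON (-0.68 to 0.99). In both diets its signal at day 21 lay between those of day 10 and day 56.

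The high fat diet was addressed by day 112 against day 56 in each diet, with age and food changing together so that they cannot be told apart. Acot11 in control was the 1 call among 12 tests, at 3.37% of probes called in control, 2.66% in LUN and 2.31% in LON. Acot1 moved by 0.66 in control, -0.56 in LUN and -0.51 in LON, with limma adjusted p from 0.546 to 0.744 and all groups near background. Acot5 in LUN was higher at day 112 by 1.86 (SE 0.69, limma adjusted p = 0.169), and its arrays did not overlap with those of day 56. This value was 2.54 without LUN day 56 replicate 3 (adjusted p = 0.039) and 1.07 without LUN day 56 replicate 2 (adjusted p = 0.662).

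Whether the change from day 56 to day 112 differed between LUN or LON and control was tested directly. Limma called 0 of 8 tests of the members, and 0.482% (LUN) and 0.318% (LON) of probes. An unadjusted p under 0.05 was found for 2 of the 8, beside 13.2% (LUN) and 11.5% (LON) of probes. The 2 were Acot5 in LUN, with a difference of 2.72 (SE 0.98, limma adjusted p = 0.217), and Acot11 in LUN, with 2.27 (SE 0.87, adjusted p = 0.246). The value of Acot5 was 3.49 without control day 112 replicate 3 (adjusted p = 0.046) and 1.93 without LUN day 56 replicate 2 (adjusted p = 0.466). When the 15 pool means were fitted with age and diet, so that the error was that between pools, 0 of 4 members were called for day 112 against day 56, against 0.379% of probes. Only Acot11 had an unadjusted p under 0.05 in that fit (-0.95, limma adjusted p = 0.481), beside 9.87% of probes.

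Of 11 other acyl-CoA thioesterases listed, 7 had a named probe. Acot13, which acts at mitochondria and is also called Them2, was the brightest probe of the family, with group means from 15.65 to 17.05. Acot9, a mitochondrial enzyme, ranged from 13.36 to 14.01 and Acot7, a cytosolic enzyme abundant in brain, from 12.79 to 14.48. The peroxisomal Acot8 ranged from 11.66 to 13.41. These 4 were above the floor on 40 to 45 arrays. Acot3, Acot12 and Them5 lay near background, with a single array above the floor among them, for Them5.

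**Figure D3:**
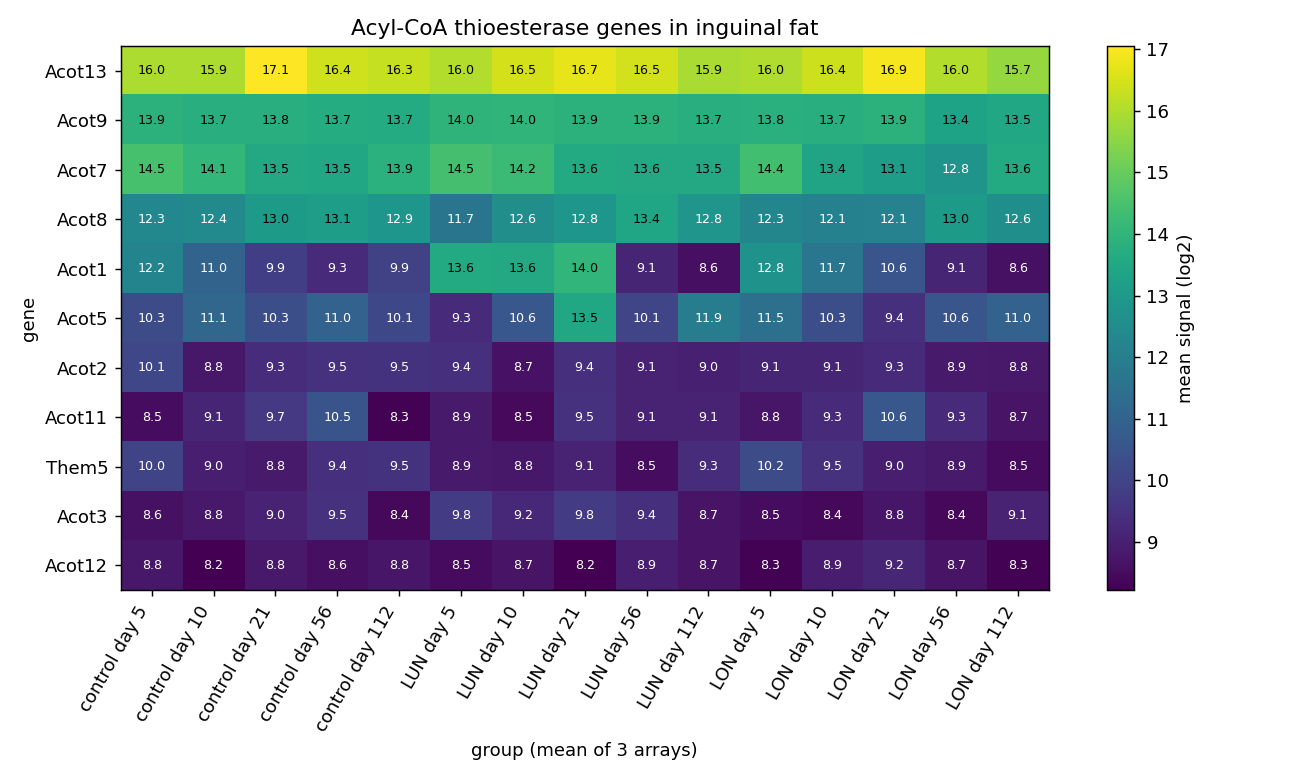
Mean log2 signal of 11 acyl-CoA thioesterase genes (rows) in the 15 groups of 3 arrays (columns), each cell printed with its mean. Acot1 changes from 14.0 to 8.6 between groups and Acot5 is bright in 1 group, while Acot13, Acot9, Acot7 and Acot8 keep high values in all groups; brightness of different probes is not a measure of relative abundance.

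None of these 7 was called in LUN against control at days 5, 10, 56 and 112. At day 10 their log2 differences lay between -0.17 and 0.52 with a median of 0.27, beside -0.02 for all probes, and at an unadjusted p under 0.05 only Acot13 passed (0.52, limma adjusted p = 0.130). Acot13 was called in other comparisons. It rose at day 21 in control by 0.88 over the mean of days 10 and 56 (SE 0.14, limma adjusted p = 0.00016) and in LON by 0.73 (SE 0.14, adjusted p = 0.0032). In LON at day 112 it was lower than control by -0.62 (SE 0.17, limma adjusted p = 0.038), a call lost without any 1 of 5 of the 6 arrays compared (adjusted p up to 0.165). Acot7 was higher at day 5 than at day 56 in control by 1.00, in LUN by 0.91 and in LON by 1.59, with limma adjusted p from 2.28e-07 to 0.0014. It was also higher at day 112 than at day 56 in LON, by 0.84 (adjusted p = 0.012), a call lost without LON day 56 replicate 1 (0.62, adjusted p = 0.188), LON day 112 replicate 1 (adjusted p = 0.051) or LON day 112 replicate 3 (adjusted p = 0.055). Acot8 was lower at day 5 than at day 56 in LUN (-1.76, adjusted p = 0.0018), with LUN arrays of day 5 at 12.49, 12.44 and 10.04, the last near background. Without this array, LUN day 5 replicate 3, the value was -0.96 (adjusted p = 0.041).

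Genes that act on the same substrates were counted at day 10 in LUN against control, where Acot1 and 1.39% of all probes were called. Among 16 measured acyl-CoA synthetases 1 was higher and 1 lower, with a median of 0.03. Slc27a1, a fatty acid transporter with synthetase activity, rose by 1.23 (SE 0.19, limma adjusted p = 0.00017). Acss2, the cytosolic acetyl-CoA synthetase, fell by 0.99 (SE 0.20, adjusted p = 0.0054), a call lost without control day 10 replicate 2 (adjusted p = 0.059) or LUN day 10 replicate 3 (adjusted p = 0.069). Of 4 acyl-CoA binding proteins 0 were called, with a median of -0.44. Of 19 genes of carnitine shuttling and peroxisomal oxidation, 1 was called and the median was 0.06. This was Abcd2, a peroxisomal transporter of acyl-CoA, which fell by 1.33 (SE 0.24, adjusted p = 0.0010).

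Among 24 measured genes of the list of PPAR-alpha and its targets, 1 was called in LUN at day 10, where 1.39% of all probes were called. The median was 0.10, beside -0.02 for all probes. The called gene was Pdk4, an inhibitor of glucose oxidation through pyruvate dehydrogenase, which rose by 1.68 (SE 0.18, limma adjusted p = 1.37e-07). Pdk4 was as high in LON at day 10 (1.68, adjusted p = 3.48e-08). The skeletal muscle marker sum, given below, was also higher than control in both LUN and LON at day 10. The part of muscle in the Pdk4 rise was not tested. Acot1 in LON at that age exceeded control by 0.66 (SE 0.48) and was not called, with only 1 control array above the floor. Whether PPAR-alpha had a part in the Acot1 signal in LUN or LON was not tested. At day 21, as a description, Slc27a1 stood at 1.77, Acss2 at -1.10, Pdk4 at 0.64 and Ppara itself, the receptor, at -1.10. Over the pools, none of the genes of these 5 lists was called by limma for day 112 against day 56, where 0.379% of all probes were called.

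**Figure D4:**
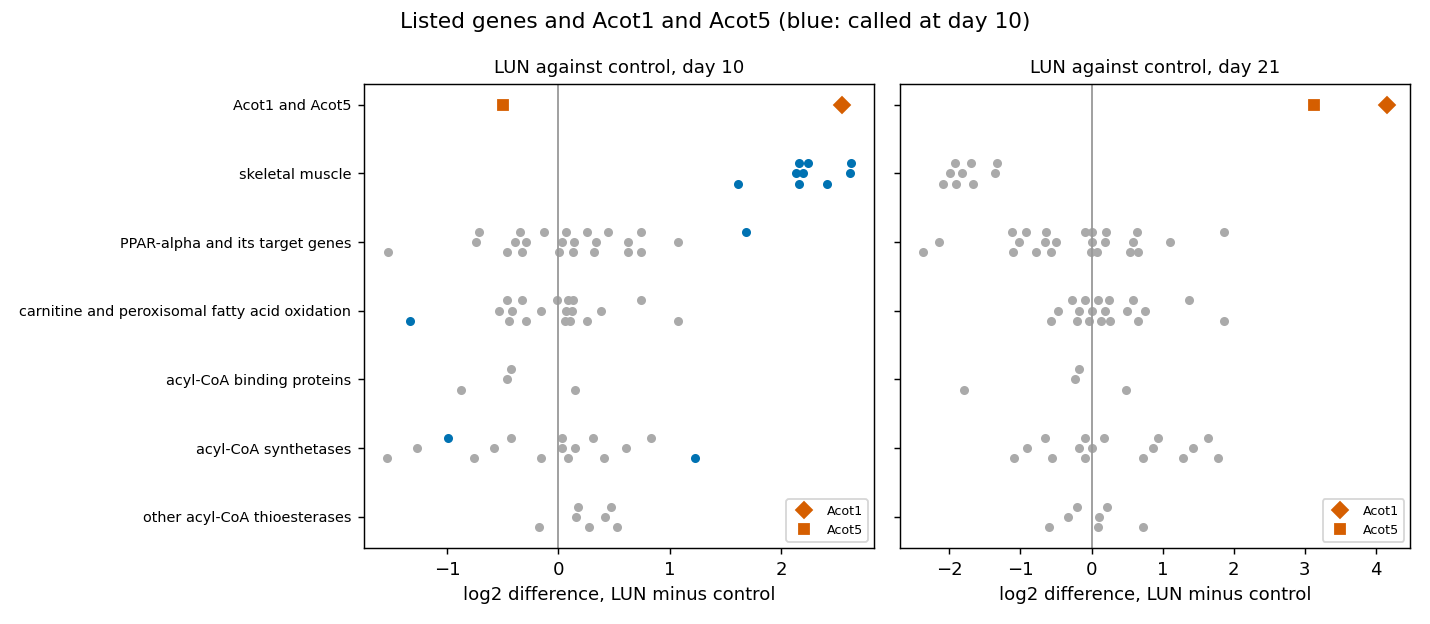
Log2 difference of LUN from control at day 10 (left) and day 21 (right) for each measured gene of the 5 lists and of the skeletal muscle markers (circles), with Acot1 as a diamond and Acot5 as a square. Blue marks genes called at day 10; at day 21 no calls are marked. Acot1 is at 2.55 on the left and at 4.16 on the right, where the control was near background and the contrast had a part in its choice.

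Summed signals of markers of other cells differed between LUN and control at some ages, not always in the same direction. The skeletal muscle sum also varied between ages within control, with 125030 to 135535 at day 56 and 2810061 to 3383427 at day 21. At day 10 all 9 measured skeletal muscle markers were higher in LUN, and their summed signal was 1154543 to 1210217 signal units against 244095 to 298070 in control. At day 21 the sum was lower in LUN, 832786 to 998407 against 2810061 to 3383427 in control, while Acot1 was higher in LUN at both ages. In LON the muscle sum was 2598859 to 2934563 at day 10 and 3357477 to 4155739 at day 56, and Acot1 was not called against control at the former and near background on each array at the latter. The liver marker sum was 29731 to 32767 in LUN at day 21 against 5953 to 6402 in control, with 5 of 7 liver markers near background on all 3 arrays. At day 10, where Acot1 was called, it was 2590 to 7965 in LUN and 4367 to 6949 in control. In LUN at day 56, where Acot1 was near background, it was 15602 to 32082. The epithelial marker sum was 9759 to 15759 in LUN and 7414 to 9671 in control at day 10, and 15182 to 29021 and 7107 to 9243 at day 21. At day 10, 7 of 7 epithelial markers were near background on all 3 arrays in LUN and 6 of 7 in control. At day 21 these counts were 2 of 7 in LUN and 7 of 7 in control. Markers of lymph node B and T cells summed to 116665 to 122633 in LUN and 80711 to 86687 in control at day 10, and to 180064 to 200848 and 141802 to 153852 at day 21. The white fat marker sum, over 5 genes and weighted to the brightest, was lower in LUN at day 10, 570564 to 811459 against 949726 to 1391313 in control. At day 21 the white fat sums overlapped, with 849169 to 1254110 in LUN and 891734 to 1441262 in control. The brown fat marker sum was lower in LUN at day 21, with 904160 to 1248433 against 2213418 to 2361096 in control. The part of these cells in the signals of Acot1 at days 10 and 21 and of Acot5 at day 21 was not tested. Nor was it tested for the listed genes called in LUN at day 10, such as Pdk4 and Slc27a1.

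Finally, the genes whose 15 group means followed those of the members most closely were listed by Pearson correlation among 8858 genes, with no test. For Acot1 these were Apoc4 (0.94), Plpp1 (0.93), Ncapg2 (0.91), Odf2 (0.90) and Tnfaip6 (0.90). Acot1 had an array above the floor in only 7 of the 15 groups. The group with its highest mean, LUN at day 21, had a part in the choice of the genes. Apoc4, an apolipoprotein gene, had means of 16.42, 15.74 and 15.75 in LUN at days 5, 10 and 21. In control its means at these ages were 15.95, 14.02 and 12.05, and at day 56 it was at 10.55 in LUN and 10.12 in control. For Acot5 they were Chia1 (0.84), Olfr317 (0.83), Gne (0.78), Nif3l1 (0.78) and Abhd15 (0.78). Olfr317 is an odorant receptor gene, of the kind whose probes set the floor. Acot5 itself had an array above the floor in only 5 of the 15 groups, so that much of its profile is signal near background. Its brightest group, LUN at day 21, had a part in the choice of the genes. Abhd15, an adipocyte protein that takes part in the brake of insulin on lipolysis, had its second highest mean in LUN at day 21 (13.86), just under LON at day 112 (13.92). The profiles share arrays and normalization, and Acot2 and Acot11 were left out of this listing because they lay near background.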

How the data were processed

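RNA of inguinal fat from 15 groups was measured on Applied Biosystems Mouse Genome Survey arrays, 1 pool of 12 mice and 3 arrays per group. The authors deposited raw intensity values without normalization between arrays and, separately, log2 values that they had quantile-normalized. How the scanner subtracted background, and a genome build, are not given in the sources used here. Here the intensities were quantile-normalized over the 45 arrays and their log2 was taken, with no offset added (correlation with the deposited log2 values at least 0.9995). With limma 3.58.1 (R 4.3.3), 33012 probes were fitted with 15 group means. Tests were two-sided, with Benjamini-Hochberg adjustment over all probes and a threshold of 0.05. The pool means were also fitted on age and diet. The number of arrays limits the precision, and the fits were tested on simulated data.

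Symbols came from the platform's probe table, and 14402 of 14411 probes with 1 symbol were updated or kept by gene ID through RefSeq (GRCm38.p6). Chromosomes and promoter windows are RefSeq's. The 4 genes and all lists were chosen with earlier results of these data known. Named were the 4 genes and their probes, up to 3 called genes with the largest changes per list in the diet comparison with most members called (LUN at day 10) and over the pools, other thioesterases called in any comparison, and the 5 genes most like each member above background. Genes with several probes were represented by the brightest. Comparisons of 2 kinds, of day 5 with day 56 and of the LUN effects between ages, were added after the values were seen. Alternatives were the deposited values, median scaling, cyclic loess, an offset, a filter on dim probes, a replicate block, a trended prior, the compared arrays alone, the methods' t-test, leaving out each array and the mean of all probes of a gene. Plots were drawn with matplotlib 3.10.9.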

Additional observations from a re-analysis of the deposited data

How the results depend on the processing

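The call of Acot1 in LUN at day 10 kept its direction and its side of the threshold under 15 of 16 alternatives, with log2 differences from 2.22 to 2.69. Under the methods' t-test with adjustment over all probes it was not called. Counts of calls changed under some alternatives, most often for day 112 against day 56. The Acot11 call in control in that comparison was lost under 8 of 15 alternatives. For LUN against control, of 16 tests, median scaling called 2 (Acot1 at day 5 also, 1.77, adjusted p = 0.047), the methods' t-test 0, and leaving out arrays 1 to 2. For LON against control, cyclic loess called 1 of 20, Acot1 at day 112 (-2.01, adjusted p = 0.027), and leaving out arrays and the methods' t-test called 0 (2 of 20 by that test at an unadjusted p under 0.05). For day 112 against day 56, cyclic loess, the probes above the median probe (from which Acot11 was absent), the compared arrays alone and the methods' t-test called 0 of 12, and leaving out arrays 0 to 2. For the difference of this change between diets, leaving out arrays called 0 to 1 of 8. For the LUN effect before weaning against day 56, an offset of 211.2 and the probes above the median probe called 1 of 8 each, and leaving out arrays 0 to 1. This was Acot1 at day 10, at 2.54 (adjusted p = 0.021) and 2.68 (adjusted p = 0.033). For day 5 against day 56 the methods' t-test called 2 of 12, and leaving out arrays 3 to 4. Lost under that test were Acot1 in LUN (4.48) and in control (2.95), the latter also with the compared arrays alone (adjusted p = 0.062), and the Acot11 call under cyclic loess (-1.76, adjusted p = 0.073). Where no value or construction is named, the cause was not tested. No difference changed sign where it was called in the main fit or under the alternative. Several differences that were not called did change sign, such as Acot2 in LUN against control at day 5 (-1.16 to 0.30).

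Array numbers did not pair the arrays, as 1 of 30 same-number pairs had a correlation of deviations over 0.1 (range -0.08 to 0.10). With a replicate block the counts were 1 of 16 for LUN, 0 of 20 for LON, 1 of 12 for day 112 against day 56 and 4 of 12 for day 5 against day 56, all as without it. Median scaling moved the median of all probes by up to 0.45 (LON minus control, day 112 against day 56), where quantile normalization left 0.15. Signals near background limit Acot2, Acot11 and, outside the groups named, Acot1 and Acot5. With 1 pool per group, a difference between groups cannot be told apart from a difference between pools of mice.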
